A study of Arabidopsis thaliana with 21 samples.

Results

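The genotype by light interaction asked which transcripts answered high light differently in hy5 than in wild-type Arabidopsis thaliana seedlings. It was taken as the log2 light effect in hy5 minus the log2 light effect in WT, over 12 of the 21 RNA-seq libraries of the study. Seedlings were grown for 7 days in dishes at 100 µmol m-2 s-1. The 4 groups, with 3 libraries each, were Col-0 WT and hy5 kept in growth light at 100 µmol m-2 s-1 and Col-0 WT and hy5 moved to high light at 500 µmol m-2 s-1, a step that lasted 2 h. The labels name no allele for these hy5 seedlings, and the tissue label names seedlings with no organ, so shoot and root RNA were read together. The other 9 libraries, of 35S:HY5K87K-GFP/hy5, 35S:HY5K87Q-GFP/hy5 and 35S:HY5K87R-GFP/hy5 in growth light, entered the shared estimate of the spread, the filter on low counts and the library scaling. The contrast itself used none of them. A positive interaction means that the level in hy5 moved up relative to WT on the shift to high light, and a negative one that it moved down.

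HY5 is a bZIP transcription factor that builds up in light and promotes seedling photomorphogenesis. It binds DNA elements with an ACGT core, the G-box among them, and COP1 with the SPA proteins marks it for degradation in darkness. It is best known in seedlings for the light control of flavonoid synthesis, of pigment and photosynthesis genes, and of nitrate uptake. High light is known as an oxidative stress, and stressed leaf cells make chaperones and photoprotective proteins.

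The 12 libraries held between 12918249 and 20156211 counts each, and levels are given as CPM, counts scaled by the TMM library size, in replicate order. At the median total of all 21 libraries 1 CPM was 14.8 counts before TMM scaling. After scaling, 1 count was 0.102 CPM in hy5 high-light replicate 2 and 0.0413 CPM in hy5 high-light replicate 3. Replicate 3 of WT in high light and replicate 3 of hy5 in high light stood apart from the other high-light libraries. The WT one had a Spearman correlation over genes of 0.809 and 0.846 with the other WT high-light libraries, against 0.957 between those, and of 0.897, 0.859 and 0.891 with hy5 replicates 1, 2 and 3 in high light. The hy5 one had 0.812 and 0.777 with the other hy5 high-light libraries, against 0.936 between those. Plastid genes took 6.52% and 7.29% of the counts of these replicate 3 libraries and at most 4.15% in the other 10. The summed level of 5 shoot photosynthesis genes was 125290.0, 65263 and 7932 CPM in WT and 76856, 71099 and 3247 CPM in hy5 in high light, and from 87190 to 111980 CPM in growth light. Of these genes CAB1 was at 71461, 24812 and 318 CPM in WT and 28877, 24589 and 22.4 CPM in hy5 in high light. PSAD-1 did not set replicate 3 apart, at 2618, 1598 and 1613 CPM in WT and 2367, 1122 and 1781 CPM in hy5. Seed storage genes were near 0, at a summed level of at most 1.68 CPM. Results that rest on these libraries are therefore given with all libraries and with both replicate 3 libraries left out, which leaves 2 libraries in each high-light group.

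HY5 itself (AT5G11260, chr5:3593335-3595073, minus strand) was read at 9.86, 7.01 and 9.06 CPM in WT in growth light and at 106, 51.9 and 41.9 CPM in WT in high light. In hy5 it was at 0.0639, 0.354 and 1.24 CPM in growth light and at 0.33, 0 and 0.496 CPM in high light. Every hy5 library was below every WT library of the same light. The light effect in WT was 2.95 ± 0.55 on the log2 scale (SE; edgeR quasi-likelihood test, adjusted p = 6.3e-04), and that in hy5 was -0.72 ± 0.73 (adjusted p = 0.47). The interaction of HY5 was -3.66 ± 0.91 (adjusted p = 0.13) and -4.51 ± 1.09 without the replicate 3 libraries (adjusted p = 0.0069).

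Across 20234 genes tested, the interaction was positive for 5 genes and negative for 13 at an adjusted p under 0.05, which is 0.0247% and 0.0642% of the genes. Of the genes tested, 2752 (13.6%) had an unadjusted p under 0.05. In WT, 13.98% of the genes tested rose and 10.83% fell in high light, and in hy5 18.86% rose and 17.66% fell. With the 12 WT and hy5 libraries fitted alone, 1 gene was called, BBX16, and the other 17 had adjusted p from 0.32 to 0.73 with the same sign. The call count also depended on the replicate 3 libraries: with both left out, 2371 genes (11.6% of 20420 tested) had a positive and 2782 (13.6%) a negative interaction. With the replicate number as a block within each light level, 753 genes (3.72%) had a positive and 1438 (7.11%) a negative interaction. This pairing was read from these data, mainly from replicate 3 standing apart in both genotypes, and is not given by the labels. Of the 2191 genes called with the block, 1927 (88%) were also called without the replicate 3 libraries, and these were 37.4% of the 5153 called there, all with the same sign. All 18 genes were called in both of these fits with the same sign. The 2 fits share libraries and both take out the shared deviation of replicate 3, so their overlap is not independent support. Leaving out any 1 growth-light library left 1 positive call and between 1 and 3 negative ones, and without WT high-light replicate 3 there were 1872 and 1510. The light effect passed the test in opposite directions in WT and hy5 for 3 of the 18 genes, in 1 genotype for 13 and in the same direction in both for 2.

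**Figure D1:**
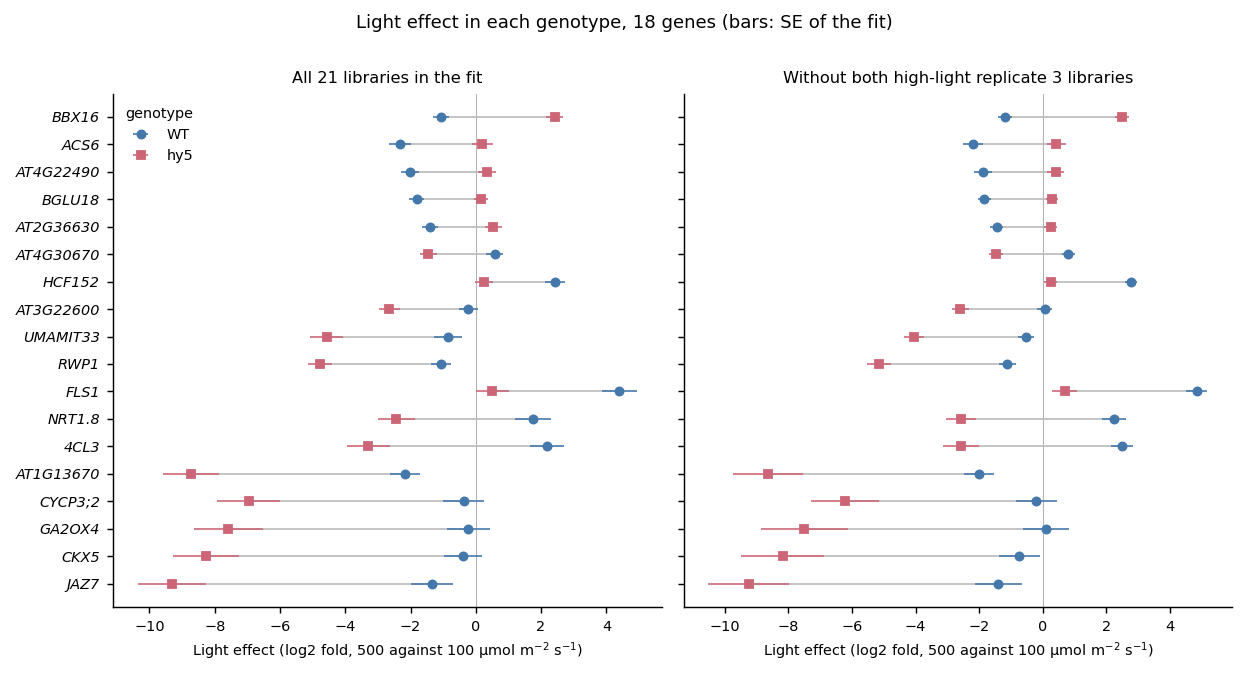
Light effect in WT (circles) and hy5 (squares) of the 18 genes with an interaction, as log2 fold of high against growth light with the SE of the fit, from the fit of all libraries (left) and without both high-light replicate 3 libraries (right). The gap between the 2 symbols of a row is the interaction: BBX16 is the only gene whose WT effect is below and hy5 effect above 0 with both past the test, and the 5 genes at the bottom have no more than 1 count in all hy5 high-light libraries, so that their hy5 values depend on the fit's prior count.

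BBX16 (AT1G73870, chr1:27778984-27780809, plus strand), which encodes a B-box zinc finger protein with a CCT domain, had the smallest adjusted p. All coordinates are in TAIR10. In WT it was at 42.9, 41.6 and 42.5 CPM in growth light and 20.2, 16.9 and 23.2 CPM in high light. In hy5 it was at 23, 26.48 and 25.4 CPM in growth light and 111, 166 and 122 CPM in high light. The order of the genotypes turned over: every hy5 library was below every WT library in growth light and above every one in high light. The light effect was -1.07 ± 0.24 in WT (adjusted p = 0.0032) and 2.41 ± 0.25 in hy5 (adjusted p = 8.7e-07), a difference of 3.49 ± 0.35 on the log2 scale (adjusted p = 9.4e-05). Without the replicate 3 libraries it was 3.67 ± 0.32 (adjusted p = 4.9e-08), and it was called in all 25 alternative analyses. Replicate 3 did not stand apart from the other high-light replicates of BBX16 in either genotype.

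The other 4 genes with a positive interaction fell in WT and did not pass the test in hy5. ACS6 (AT4G11280, chr4:6863979-6866116, plus strand) encodes an ACC synthase, which makes the precursor of ethylene. It was at 49, 53.9 and 43.4 CPM in growth light and 7.43, 13.8 and 8.18 CPM in high light in WT. The hy5 libraries were at 16.5, 20.8 and 15.6 CPM in growth light and 12.8, 34.6 and 13.7 CPM in high light. The WT groups did not overlap and the hy5 groups did, and the interaction was 2.52 ± 0.47 (adjusted p = 0.035). BGLU18 (AT1G52400, chr1:19514989-19518411, plus strand), a beta-glucosidase that releases abscisic acid from its glucose ester, was at 54.9, 69.1 and 57.6 CPM in growth light and 16.9, 16.9 and 17.9 CPM in high light in WT. Levels in hy5 were 26.8, 28.9 and 28.7 CPM in growth light and 41.7, 26 and 27.2 CPM in high light. Its WT level was lower in every high-light library than in any growth-light one, its hy5 groups overlapped, and the interaction was 1.98 ± 0.31 (adjusted p = 0.017). AT4G22490 (chr4:11849653-11850436, minus strand), of the lipid-transfer protein family, was at 39.2, 35.2 and 38.9 CPM in growth light and 13.6, 6.82 and 7.65 CPM in high light in WT. In hy5 it was at 15.1, 15.3 and 13.1 CPM in growth light and 25, 12.8 and 17.1 CPM in high light. The fall in WT was again seen in every high-light library. AT2G36630 (chr2:15352491-15355330, minus strand), of the TauE/SafE sulfite exporter family, was at 83.2, 92.6 and 96.7 CPM in growth light and 40.2, 25.9 and 37.2 CPM in high light in WT. Its hy5 values were 63.9, 60.3 and 60.2 CPM in growth light and 89.5, 54.8 and 123 CPM in high light. In growth light the fitted log2 difference of hy5 minus WT was -1.47 for ACS6 (adjusted p = 0.068), -1.11 for BGLU18 (0.042), -1.38 for AT4G22490 (0.045) and -0.56 for AT2G36630 (0.47). In high light it was 1.05 for ACS6 (adjusted p = 0.085), 0.88 for BGLU18 (0.035), 0.97 for AT4G22490 (0.061) and 1.37 for AT2G36630 (0.0057). These 4 genes were chosen by their interaction, of which both differences are parts. The interaction was 2.35 ± 0.39 for AT4G22490 (adjusted p = 0.023) and 1.94 ± 0.35 for AT2G36630 (adjusted p = 0.035).

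Of the 13 genes with a negative interaction, 4 rose in WT. FLS1 (AT5G08640, chr5:2803833-2805606, plus strand), flavonol synthase, was at 15.2, 18 and 14.6 CPM in growth light and 551, 359.7 and 93.9 CPM in high light in WT. The hy5 seedlings had 3.39, 3.01 and 1.59 CPM in growth light and 5.02, 3.47 and 2.98 CPM in high light. All WT high-light libraries, replicate 3 included, were above all others, while the hy5 libraries stayed at 5.02 CPM or below in both lights. The light effect was 4.39 ± 0.53 in WT (adjusted p = 7.2e-06) and 0.51 ± 0.50 in hy5 (adjusted p = 0.45), which left an interaction of -3.88 ± 0.71 (adjusted p = 0.035). HCF152 (AT3G09650, chr3:2958676-2961299, plus strand), a pentatricopeptide repeat protein that binds and matures plastid RNA, was at 19.7, 20.1 and 20.6 CPM in growth light and 138, 135 and 51.5 CPM in high light in WT. The hy5 libraries were at 12.6, 11.6 and 12.1 CPM in growth light and 12.9, 15.6 and 14.6 CPM in high light. It thus rose in WT (log2 2.42 ± 0.29, adjusted p = 7.0e-06) and did not pass the test in hy5, where the difference was 0.25 ± 0.28 (adjusted p = 0.53), which left an interaction of -2.18 ± 0.40 (adjusted p = 0.035).

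4CL3 and NRT1.8 rose in WT and fell in hy5. 4CL3 (AT1G65060, chr1:24167202-24171635, minus strand) encodes a 4-coumarate:CoA ligase, the step that supplies coumaroyl-CoA to chalcone synthase. It was at 7.56, 8.52 and 6.04 CPM in growth light and 38.6, 43.8 and 17.78 CPM in high light in WT. Levels in hy5 were 1.85, 2.39 and 2.21 CPM in growth light and 0.595, 0 and 0.0413 CPM in high light. The 4 groups did not overlap, and the interaction was -5.47 ± 0.84 (adjusted p = 0.017). NRT1.8 (AT4G21680, chr4:11517353-11519805, minus strand), a nitrate transporter that takes nitrate out of the xylem sap, was at 2.83, 2.55 and 2.71 CPM in growth light and 13.2, 12.2 and 1.99 CPM in high light in WT. In hy5 it was at 6.91, 5.4 and 5.04 CPM in growth light and 1.32, 0.51 and 1.28 CPM in high light. WT replicate 3 was below the growth-light libraries while WT replicates 1 and 2 were far above them, and without the replicate 3 libraries the interaction of NRT1.8 was -4.81 ± 0.60 in place of -4.18 ± 0.78 (adjusted p = 6.4e-06 and 0.035).

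The other 9 genes with a negative interaction fell in hy5, and 2 of them, RWP1 and AT1G13670, fell less far in WT as well. RWP1 (AT5G41040, chr5:16431304-16433305, plus strand) encodes the feruloyl transferase that puts ferulate on suberin. It was at 23.4, 20.6 and 26.6 CPM in growth light and 10.6, 11.1 and 11.8 CPM in high light in WT. Its hy5 values were 12.5, 14.4 and 16 CPM in growth light and 0.595, 0.102 and 0.703 CPM in high light. No hy5 high-light library reached the lowest value of any other group. The light effect was -1.07 ± 0.30 in WT (adjusted p = 0.012) and -4.79 ± 0.37 in hy5 (adjusted p = 2.6e-08), the interaction was -3.72 ± 0.46 (adjusted p = 0.0012), and it was called in 22 of 25 alternative analyses. In whole seedlings, fewer cells of a type and less RNA per cell cannot be told apart.

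The next 3 genes were well expressed in WT in both lights and low in hy5 in high light. UMAMIT33 (AT4G28040, chr4:13940307-13942436, plus strand), of a family of amino acid transporters, was at 47.9, 36.6 and 47.8 CPM in growth light and 35, 25.7 and 12.5 CPM in high light in WT, and in hy5 at 54.4, 55 and 48.2 CPM in growth light and 4.63, 1.33 and 0.703 CPM in high light. AT3G22600 (chr3:8006249-8007836, minus strand), of the lipid-transfer protein family, was at 67.3, 64.4 and 66.1 CPM in growth light and 87.4, 49.2 and 31.9 CPM in high light in WT and at 62.7, 56.4 and 55.4 CPM in growth light and 12, 6.73 and 8.85 CPM in high light in hy5. AT4G30670 (chr4:14957294-14958080, minus strand), annotated as a putative membrane lipoprotein, was at 61.1, 54.2 and 59.3 CPM in growth light and 126, 76.9 and 59.2 CPM in high light in WT and at 61.8, 52.7 and 48.3 CPM in growth light and 21.9, 16.7 and 20.7 CPM in high light in hy5. In all 3 genes the hy5 high-light libraries were below every other library and the WT light effect did not pass the test. Their interactions were -3.71 ± 0.64 for UMAMIT33 (adjusted p = 0.025), -2.42 ± 0.43 for AT3G22600 (adjusted p = 0.033) and -2.04 ± 0.37 for AT4G30670 (adjusted p = 0.035).

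Another 5 genes were low everywhere and had at most 1 count over the 3 hy5 high-light libraries. Genes with at least 1 count numbered 21247, 17802 and 18877 in these libraries and 20497, 19588 and 21749 in WT in high light. In growth light they numbered from 20871 to 21720. The part of this lower detection in the zeros was not tested. JAZ7 (AT2G34600, chr2:14573030-14573952, plus strand), a jasmonate ZIM-domain repressor, was at 5.18, 6.11 and 3.71 CPM in hy5 in growth light and had 0 counts in hy5 in high light. In WT it was at 1.18, 0.717 and 0.986 CPM in growth light and 0.0835, 0.654 and 0.398 CPM in high light. With the floor set at 3 counts over the group, its level in hy5 was at least 82.2-fold lower in high light. At that floor the fall was 31.6-fold larger than in WT. The WT levels were taken as measured, from 43 and 17 counts, so the 31.6-fold value is no bound. CKX5 (AT1G75450, chr1:28314458-28318375, minus strand), a cytokinin oxidase, was at 1.98, 2.3 and 2.92 CPM in hy5 in growth light, had 0 counts in hy5 in high light and was at 0.501, 1.22 and 1.5 CPM in WT in high light. It was at least 38.5-fold lower in high light in hy5. GA2OX4 (AT1G47990, chr1:17698598-17701041, plus strand), a gibberellin 2-oxidase that inactivates gibberellins, was at 1.73, 1.86 and 0.884 CPM in growth light in hy5 and had 0 counts in high light, which is at least 24.8-fold lower. In WT it was at 0.789, 0.478 and 0.37 CPM in growth light and 0.418, 0.748 and 0.265 CPM in high light, with overlapping groups. AT1G13670 (chr1:4688018-4689265, plus strand), which carries no description in the deposited table, was at 2.75, 3.81 and 3.36 CPM in growth light in hy5 and had 0 counts in high light, at least 53.1-fold lower, and at 5.46, 5.97 and 6.66 CPM in growth light and 0.668, 2.34 and 1.06 CPM in high light in WT. CYCP3;2 (AT3G60550, chr3:22379740-22380906, plus strand), a P-type cyclin, had 134 counts in growth light and 1 count in high light over the hy5 libraries, a ratio of 172 (exact 95% interval 30.4 to 6850, counting error only). The counts in hy5 in growth light were 192 for JAZ7, 90 for CKX5, 58 for GA2OX4 and 124 for AT1G13670, and their adjusted p ran from 0.018 to 0.033. The fitted interactions of these 5 genes depend on the prior count and are no bounds.

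The genes RWP1, CKX5, UMAMIT33, HCF152 and NRT1.8 overlap a gene on the opposite strand in the annotation. The strand setting of the counting is not stated, so reads of the overlapping partners cannot be told apart.

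**Figure D2:**
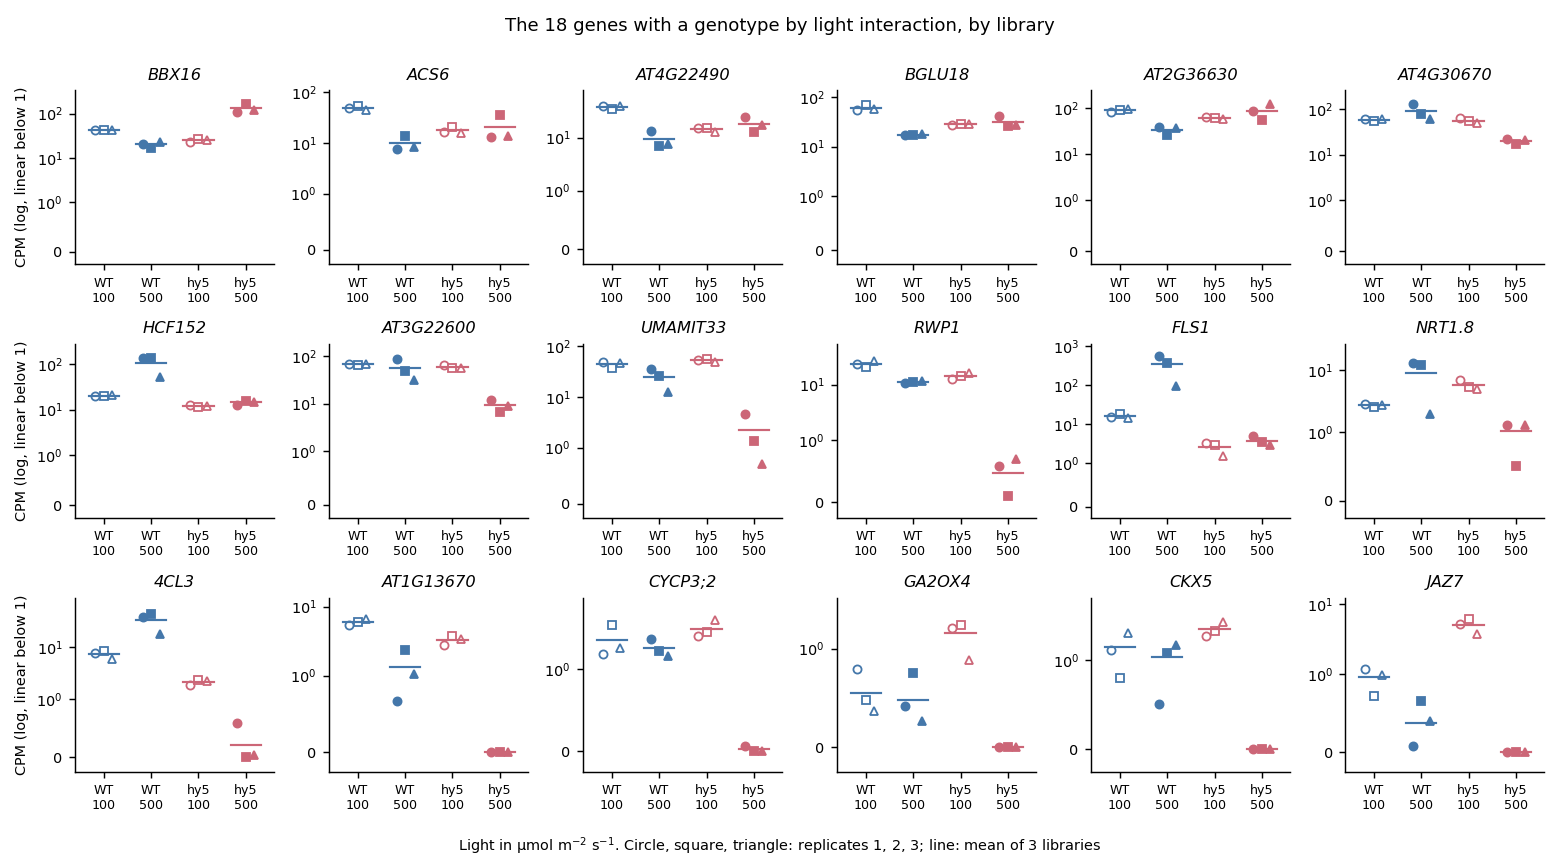
CPM of the 18 genes in each of the 12 libraries, on an axis that is logarithmic above 1 and linear below, ordered from the highest to the lowest interaction; open symbols are at 100 and filled symbols at 500 µmol m-2 s-1, and lines are means of 3 libraries. The 3 hy5 high-light values lie above the WT high-light ones in BBX16 and far below them in RWP1, FLS1 and 4CL3, and at 0 in AT1G13670, GA2OX4, CKX5 and JAZ7.

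HY5 binds ACGT-core elements, and the 300 bases upstream of the annotated start of each of the 18 genes were searched on both strands for ACGT and for the G-box CACGTG, which contains ACGT. Both motifs are their own reverse complement. ACGT was found in 13 of the 18 windows (72.2%), in 2 of the 5 genes with a positive and 11 of the 13 with a negative interaction, and in 49.2% of the 20061 tested genes with a window. CACGTG was found in 2 of the 18 (11.1%), JAZ7 and GA2OX4, and in 8.13% of all windows. A match in the letters is not a measurement of binding. BBX16, RWP1 and FLS1 are shown because they carry the 3 main patterns described above, and JAZ7 and GA2OX4 because they hold the G-box. Each is written 5′ to 3′ on the strand of the gene and ends at the base before the annotated start, with ACGT in capitals. The windows lie on the plus strand of TAIR10 at chr1:27778684-27778983 for BBX16, chr5:16431004-16431303 for RWP1, chr5:2803533-2803832 for FLS1, chr2:14572730-14573029 for JAZ7 and chr1:17698298-17698597 for GA2OX4.
BBX16: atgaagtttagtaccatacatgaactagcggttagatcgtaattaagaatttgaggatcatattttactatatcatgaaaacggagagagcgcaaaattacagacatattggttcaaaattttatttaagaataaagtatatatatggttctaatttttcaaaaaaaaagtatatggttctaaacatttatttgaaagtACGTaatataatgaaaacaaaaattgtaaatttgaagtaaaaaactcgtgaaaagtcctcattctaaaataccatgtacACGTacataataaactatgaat
RWP1: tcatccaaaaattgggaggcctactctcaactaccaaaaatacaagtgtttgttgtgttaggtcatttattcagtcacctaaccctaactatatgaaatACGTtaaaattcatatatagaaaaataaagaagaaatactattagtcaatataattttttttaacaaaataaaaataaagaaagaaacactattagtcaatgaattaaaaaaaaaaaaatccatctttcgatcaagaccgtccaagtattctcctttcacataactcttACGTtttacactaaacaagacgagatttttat
FLS1: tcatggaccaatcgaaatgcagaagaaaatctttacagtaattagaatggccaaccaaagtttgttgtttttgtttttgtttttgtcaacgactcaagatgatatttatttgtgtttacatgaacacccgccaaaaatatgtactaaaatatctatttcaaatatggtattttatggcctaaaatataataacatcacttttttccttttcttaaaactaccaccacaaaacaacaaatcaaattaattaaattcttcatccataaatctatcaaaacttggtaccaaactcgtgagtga
JAZ7: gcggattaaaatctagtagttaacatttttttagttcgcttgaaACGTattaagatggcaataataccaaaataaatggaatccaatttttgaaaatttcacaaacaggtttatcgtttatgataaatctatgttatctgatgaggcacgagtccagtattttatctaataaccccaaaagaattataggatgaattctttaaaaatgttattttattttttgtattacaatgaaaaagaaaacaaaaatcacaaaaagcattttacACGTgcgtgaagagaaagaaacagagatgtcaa
GA2OX4: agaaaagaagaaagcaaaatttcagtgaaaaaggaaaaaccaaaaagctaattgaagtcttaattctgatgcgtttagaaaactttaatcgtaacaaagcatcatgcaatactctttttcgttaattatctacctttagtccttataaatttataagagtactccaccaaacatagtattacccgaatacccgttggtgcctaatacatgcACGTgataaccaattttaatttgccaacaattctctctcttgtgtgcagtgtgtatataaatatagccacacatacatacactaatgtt
The last ACGT of the BBX16 window ended 19 bases before the start, that of RWP1 29 bases and that of JAZ7 30 bases before it. The single ACGT of GA2OX4 ended 86 bases before the start, and FLS1 held none in its window.

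Flavonoids are made from phenylalanine through the phenylpropanoid enzymes PAL, C4H and 4CL. The early flavonoid enzymes CHS, CHI, F3H, F3'H and FLS1 follow, and sugar transferases finish the flavonols. The summed level of the 8 early flavonoid and flavonol genes tested, of 11 listed, was 360.4, 358 and 358 CPM in WT and 173, 174 and 176 CPM in hy5 in growth light. In high light it was 6447, 4314 and 439 CPM in WT and 269, 226 and 95.4 CPM in hy5. WT replicates 1 and 2 were far above the growth-light level, WT replicate 3 was near it, and every hy5 high-light library was below the WT growth-light level. All 8 genes had a negative interaction with a median of -2.97, against -0.03 over all genes tested. In the fit of all libraries 7 of these 8 genes rose in WT, none passed the test in hy5, and FLS1 was the only one with an interaction called. Without the replicate 3 libraries UGT78D2 (log2 1.06, adjusted p = 1.2e-04) and RHM1 (0.71, adjusted p = 6.9e-04) rose in hy5. With the replicate block 7 of 8 were called negative, and without the replicate 3 libraries 8 of 9, and none was called positive in either. Over all genes tested, the block called 3.72% positive and 7.11% negative. Without the replicate 3 libraries 11.6% were positive and 13.6% negative, and each list count below is to be read beside these shares.

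CHS (TT4), the first committed enzyme, was at 147, 142 and 147 CPM in growth light and 4766, 3031 and 26.4 CPM in high light in WT. The hy5 seedlings had 8.12, 6.91 and 9.11 CPM in growth light and 12.2, 5.61 and 0.165 CPM in high light. WT replicates 1 and 2 were far above growth light in high light, and WT replicate 3 was below it. Its interaction was -4.60 ± 1.49 with all libraries (adjusted p = 0.22) and -4.57 ± 0.37 without replicate 3 (adjusted p = 3.0e-08). CHI (TT5), the next enzyme, was at 142, 92.4 and 18.4 CPM in WT and 11.4, 10.7 and 4.38 CPM in hy5 in high light, against 18.3, 20.1 and 17.3 CPM in WT and 12.5, 11.6 and 14.4 CPM in hy5 in growth light. CHIL, which keeps CHS on its main product, was at 175, 118 and 17.73 CPM in WT and 4.63, 13.9 and 3.72 CPM in hy5 in high light, against 19.6, 14.8 and 19.7 CPM in WT and 11.3, 12 and 11.9 CPM in hy5 in growth light. Replicate 3 of WT stood at the growth-light level in both genes. Their interactions without the replicate 3 libraries were -2.86 ± 0.30 for CHI (adjusted p = 6.6e-07) and -3.38 ± 0.48 for CHIL (adjusted p = 4.3e-05). F3'H (TT7), which adds the hydroxyl group of quercetin, had -4.07 ± 0.62 (adjusted p = 6.6e-05), and the glucosyltransferase UGT78D2 had -1.88 ± 0.29 (adjusted p = 6.3e-05). F3H, UGT78D3 and UGT89C1 did not pass the filter on low counts in the fit of all libraries.

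**Figure D3:**
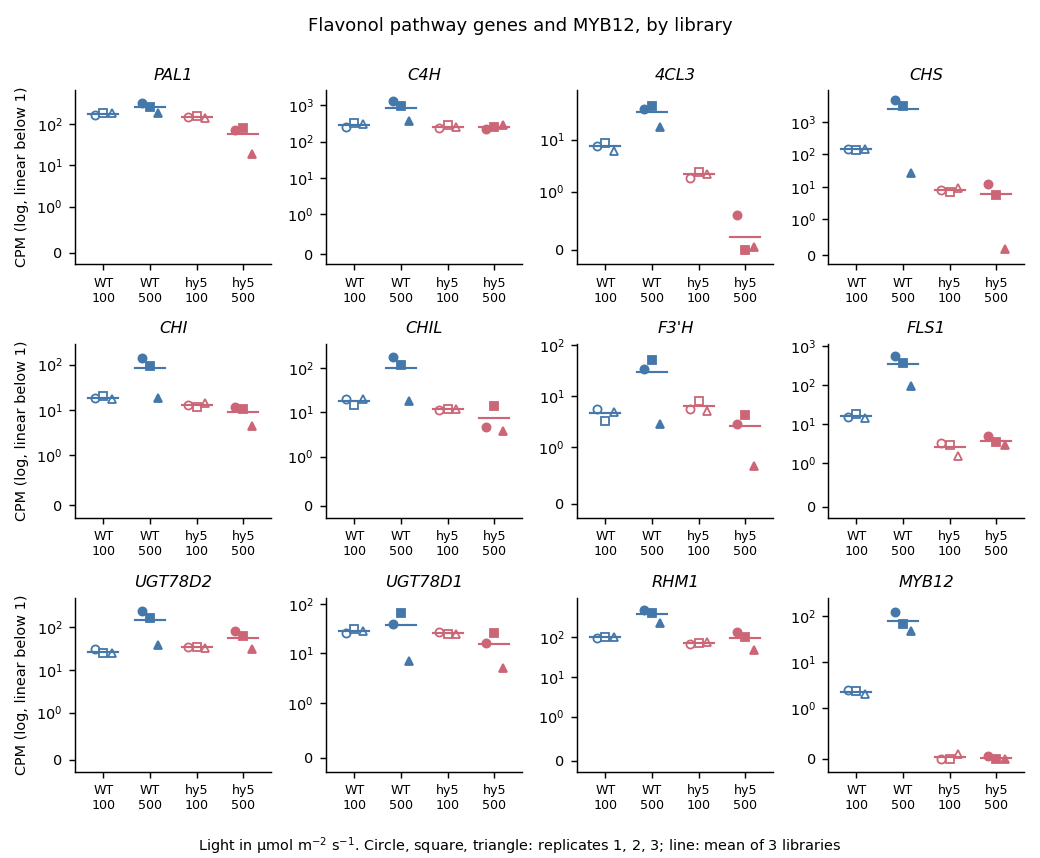
CPM of 11 enzyme genes of the flavonol pathway and of the regulator MYB12 in each of the 12 libraries, on an axis that is logarithmic above 1 and linear below; open symbols are growth light, filled symbols high light, and lines are means of 3 libraries. WT replicates 1 and 2 in high light (filled circles and squares) stand above the other libraries in CHS, CHI, CHIL and FLS1, while WT replicate 3 (triangle) is above growth light in FLS1 and MYB12 but not in CHS.

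Of the flavonoid regulators, 11 of 17 were tested and none was called in the fit of all libraries. MYB12, an activator of the flavonol enzymes, was at 2.43, 2.31 and 2.03 CPM in growth light and 125, 68.1 and 46.6 CPM in high light in WT, where it rose by 5.14 on the log2 scale (adjusted p = 2.5e-06). The hy5 libraries were at 0, 0 and 0.0884 CPM in growth light and 0.0661, 0 and 0 CPM in high light, with both lights at or under the floor of 3 counts, so that no fold can be given in hy5. All WT libraries, replicate 3 included, were above all hy5 libraries. MYB4 and MYB7, repressors of phenylpropanoid genes, stood the other way. MYB4 was at 3.51, 3.09 and 22.8 CPM in WT and 12, 15.1 and 18.9 CPM in hy5 in high light, against 5.19, 4.38 and 3.58 CPM in WT and 1.6, 1.86 and 0.884 CPM in hy5 in growth light. It rose in hy5 (log2 3.39 ± 0.61, adjusted p = 2.9e-04), its interaction was 2.22 ± 0.80 (adjusted p = 0.25), and without the replicate 3 libraries 3.63 ± 0.56 (adjusted p = 6.4e-05). Without those libraries 2 of 12 regulators, MYB4 and MYB7, were called positive and 3 negative, the anthocyanin repressors LBD37, LBD38 and LBD39. All genes tested gave 11.6% and 13.6% there. With the block MYB4 was called positive and LBD38 negative. MYBL2, of the same list, fell in WT (log2 -2.20 ± 0.30, adjusted p = 3.1e-05) and in hy5 (-3.06 ± 0.32, adjusted p = 7.2e-07). Its interaction was -0.86 ± 0.41 (adjusted p = 0.37) and -0.27 ± 0.30 without the replicate 3 libraries (adjusted p = 0.55), opposite in sign to MYB4 and MYB7.

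The 19 general phenylpropanoid and monolignol genes had 1 negative call, 4CL3, and a median interaction of -0.58. With the block 9 were called negative and without the replicate 3 libraries 10, with no positive call in either. PAL1, the entry enzyme, was at 168, 181 and 178 CPM in growth light and 322, 254 and 188 CPM in high light in WT, and in hy5 at 144, 158 and 139 CPM in growth light and 70.6, 80.4 and 18.19 CPM in high light. C4H, the next enzyme, was at 250.5, 328 and 298 CPM in growth light and 1304, 960.3 and 362 CPM in high light in WT and at 239, 288 and 251 CPM in growth light and 226, 247 and 296 CPM in high light in hy5. PAL1 fell in hy5 (log2 -1.38 ± 0.37, adjusted p = 0.0063) and C4H rose in WT (1.58 ± 0.35, adjusted p = 0.0023), and neither passed the test in the other genotype. Among the 4-coumarate:CoA ligases, 4CL1, 4CL2 and 4CL5 fell in both genotypes, with interactions of 0.17, -0.18 and 0.20 that did not pass the test and changed sign under other settings.

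Of 10 anthocyanin and proanthocyanidin genes 7 were tested. None was called with all libraries or with the block, and 3AT1, SCPL10 and TT19 were called negative without the replicate 3 libraries. SCPL10, an acyltransferase-like protein of the serine carboxypeptidase family, was at 11.1, 26.4 and 8 CPM in WT and 5.35, 3.06 and 44.2 CPM in hy5 in high light, with hy5 replicate 3 above every other library. Its interaction was 0.67 ± 0.91 with all libraries (adjusted p = 0.77) and -1.67 ± 0.50 without replicate 3 (adjusted p = 0.016), so the sign turned with these libraries. The list medians were -1.51 with all libraries, -1.30 with the block and -1.39 without replicate 3. GSTF12 (TT19), the transferase that carries anthocyanin to the vacuole, had 19 counts in growth light and 0 in high light over the hy5 libraries, at least 8.14-fold lower. The sinapate ester enzymes, which make ultraviolet-screening esters, had 0 calls of 4 with all libraries, while UGT84A1 and UGT84A2 were called negative with the block and without the replicate 3 libraries, and REF1 positive without them. UGT84A2 was at 78.9, 80.5 and 51.6 CPM in WT and 7.8, 5.71 and 1.28 CPM in hy5 in high light, against 15.39, 18.8 and 16 CPM in WT and 6.33, 7.17 and 6.1 CPM in hy5 in growth light. It rose in WT in every replicate, with an interaction of -2.50 ± 0.55 (adjusted p = 0.084) and -2.18 ± 0.29 without replicate 3 (adjusted p = 1.5e-05).

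Of the 15 genes of HY5 and its partners in light and UV-B signalling, none was called with all libraries. Without the replicate 3 libraries 3 were positive and 3 negative, beside 11.6% and 13.6% of all genes tested. The negative ones were HY5, RUP1 and RUP2, and the positive ones COP1, SPA1 and SPA3, of the ligase complex that targets HY5. With the block COP1 was positive and HY5 and RUP1 negative. RUP1, which returns the UV-B receptor UVR8 to its ground state, was at 66.9, 58.4 and 59.3 CPM in growth light and 68.9, 46.1 and 2.43 CPM in high light in WT. Levels in hy5 were 91.7, 85.7 and 87.4 CPM in growth light and 2.45, 1.33 and 0 CPM in high light. It fell in hy5 (log2 -6.19 ± 1.06, adjusted p = 1.9e-04), WT replicates 1 and 2 were near their growth-light level and WT replicate 3 was far below it. Its interaction was -5.54 ± 1.29 (adjusted p = 0.10) and without the replicate 3 libraries -5.39 ± 0.61 (adjusted p = 1.2e-05). COP1 was at 22, 36.1 and 57.3 CPM in WT and 26, 28.5 and 42.3 CPM in hy5 in high light, against 21.2, 23.58 and 25.1 CPM in WT and 9.02, 11 and 9.99 CPM in hy5 in growth light, with an interaction of 0.97 ± 0.41 (adjusted p = 0.31) and 1.15 ± 0.32 without replicate 3 (adjusted p = 0.010). COP1 was lower in every hy5 than in any WT library in growth light, and the high-light groups overlapped.

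BBX16 was the only one of 24 B-box genes with a call when all libraries were fitted, and the family's median interaction was 0.21. With the block BBX16, BBX19 and BBX32 were positive and BBX6 negative, beside 3.72% and 7.11% of all genes tested. Without the replicate 3 libraries BBX3, BBX16, BBX19, BBX25 and BBX30 were positive and BBX4, BBX6, BBX7 and BBX14 negative. In that fit 11.6% of all genes tested were positive and 13.6% negative. BBX19 was at 8.02, 8.36 and 7.71 CPM in growth light and 0.835, 0.935 and 4.29 CPM in high light in WT, and in hy5 at 4.67, 3.63 and 5.04 CPM in growth light and 6.54, 2.75 and 12.7 CPM in high light. It fell in WT (-1.94 ± 0.57, adjusted p = 0.017) and did not pass the test in hy5, with an interaction of 2.67 ± 0.79 (adjusted p = 0.19) and 3.26 ± 0.62 without replicate 3 (adjusted p = 5.2e-04). BBX14 and BBX15, which share the domain layout of BBX16, had interactions of -1.07 (adjusted p = 0.47) and 0.80 (adjusted p = 0.51), and without replicate 3 of -1.21 (adjusted p = 0.0018) and 0.57 (adjusted p = 0.12). Both fell in WT, and BBX14 also fell in hy5.

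Of 19 photoprotection and light stress genes, none was called with all libraries, 1 was positive and 6 negative with the block, and 4 and 7 without the replicate 3 libraries. Over all genes tested the shares were 3.72% and 7.11% with the block and 11.6% and 13.6% without replicate 3. The positive ones were PSY with the block and VDE, ZEP, PSY and SIG5 without replicate 3, of which PSY, VDE and ZEP are enzymes of carotenoid and xanthophyll turnover. CRY3, the DASH-type cryptochrome of organelles, was at 16.7, 17.3 and 19.8 CPM in growth light and 51.3, 57 and 45.5 CPM in high light in WT. In hy5 it was at 14.8, 15.9 and 15.1 CPM in growth light and 15.1, 15.8 and 15.5 CPM in high light. The WT groups were apart in every replicate and the hy5 groups overlapped, and its interaction was -1.5 ± 0.42 (adjusted p = 0.18) and -1.57 ± 0.40 without the replicate 3 libraries (adjusted p = 0.0063). ELIP2, of the thylakoid ELIP family, was at 129, 95.4 and 1.11 CPM in WT and 3.3, 1.12 and 0 CPM in hy5 in high light, against 9.21, 8.84 and 6.9 CPM in WT and 1.28, 1.86 and 3.36 CPM in hy5 in growth light. WT replicates 1 and 2 were high and replicate 3 was below growth light, and its interaction was -3.75 ± 1.52 (adjusted p = 0.29) and -3.62 ± 0.59 without replicate 3 (adjusted p = 1.5e-04).

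Most heat stress genes rose in both genotypes. Of 14 large chaperones and co-chaperones, 12 rose in WT and 12 in hy5, and the median interaction was 1.47, with 0 calls with all libraries. With the block CLPB3, CLPB4, HSP90.1, ROF2 and HOP3 were positive and without the replicate 3 libraries 10, with none negative in either. CLPB3, the plastid ClpB disaggregase, was at 53.4, 71.6 and 59.8 CPM in growth light and 597, 626 and 3653 CPM in high light in WT. Its hy5 values were 21.2, 23.56 and 26.2 CPM in growth light and 2095, 2819 and 2031 CPM in high light. Replicates 1 and 2 of WT were below all hy5 high-light libraries and WT replicate 3 was above them, so the order of the genotypes differed between replicates. The interaction was 1.89 ± 0.70 with all libraries (adjusted p = 0.26) and 3.40 ± 0.27 without replicate 3 (adjusted p = 3.0e-08). HSP101, its cytosolic relative, was at 3608, 2234 and 10419 CPM in WT and 13362, 25086 and 2558 CPM in hy5 in high light, and at 8.12 CPM or less in growth light. In replicate 3 of HSP101 WT was above hy5, and in replicates 1 and 2 below it. HSP90.1 showed the same change of order, at 3762, 2939 and 20079 CPM in WT and 6406, 13773 and 8259.8 CPM in hy5 in high light.

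Among 17 heat stress transcription factors, none was called with all libraries, HSFA2 and HSFA7A were positive with the block and 6 of 18 without the replicate 3 libraries, with none negative. In WT 11 of the 17 rose and in hy5 10. HSFA2, which sustains the heat response, was at 1299, 616 and 4425 CPM in WT and 4156, 9330.1 and 4391 CPM in hy5 in high light, and at 2.47 CPM or less in growth light. Its interaction was 2.61 ± 0.93 (adjusted p = 0.25) and 3.96 ± 0.69 without the replicate 3 libraries (adjusted p = 7.2e-04). Of 15 small heat shock proteins, the same 14 rose in WT and hy5, with 0 interaction calls with all libraries. With the block AT5G12030 was positive and HSP21 negative, and without the replicate 3 libraries HSP15.7, HSP17.6II and AT5G12030 were positive and HSP21 negative. AT5G12030, which the deposited table names HSP17.6A, was at 1.45, 0.717 and 1.54 CPM in growth light and 2459.6, 1314 and 1950.4 CPM in high light in WT, and in hy5 at 0.128, 0.177 and 0.354 CPM in growth light and 3099, 9656 and 2221 CPM in high light, with an interaction of 3.89 ± 0.87 (adjusted p = 0.087) and 4.30 ± 0.90 without replicate 3 (adjusted p = 0.0028). HSP21, the plastid small heat shock protein, had 0 counts in WT in growth light and 0.576, 0.0886 and 0.354 CPM in hy5. In high light it was at 820.0, 642 and 1536 CPM in WT and 1039, 765 and 843 CPM in hy5, with overlapping groups. No fold is given for its interaction, which depends on the prior count.

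**Figure D4:**
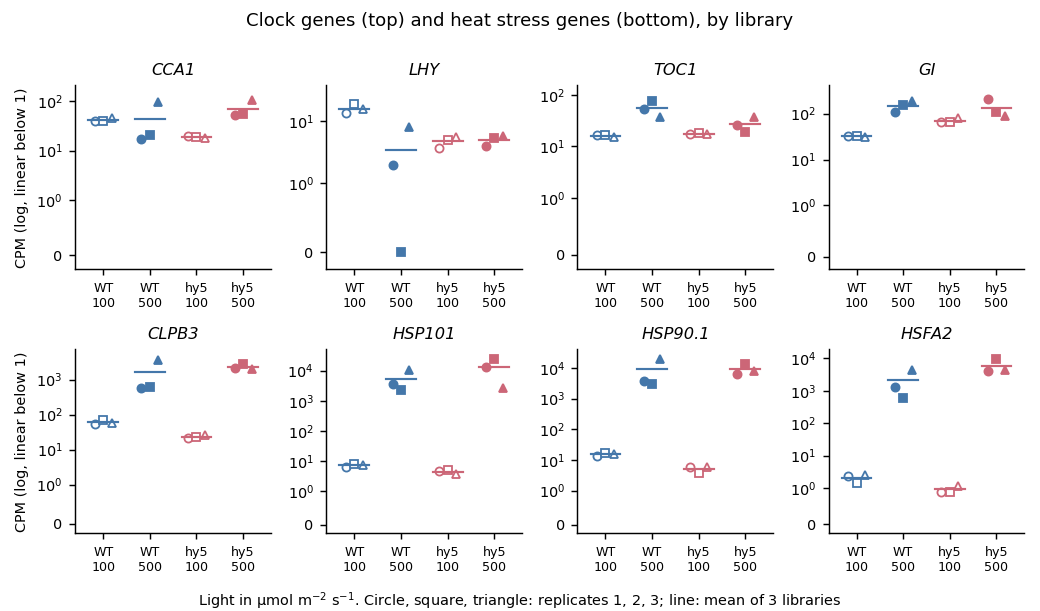
CPM of 4 clock genes (top) and 4 heat stress genes (bottom) in each of the 12 libraries, on an axis that is logarithmic above 1 and linear below; open symbols are growth light, filled symbols high light, and lines are means of 3 libraries. In CCA1, CLPB3 and HSFA2 WT replicates 1 and 2 in high light (filled circle and square) lie below the hy5 high-light libraries, and WT replicate 3 (filled triangle) lies with or above them.

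The clock genes are expressed in turn over the day, with CCA1, LHY, RVE1, PRR9 and PRR7 in the morning and TOC1, GI, ELF4, LUX and BOA towards the evening. None of 15 was called with all libraries. With the block and without the replicate 3 libraries CCA1, LHY, RVE1, PRR9 and PRR7 were positive. GI, ELF4 and BOA were negative with the block, and without the replicate 3 libraries TOC1, GI, ELF4, LUX, BOA and COR28. CCA1 was at 39.7, 40 and 45.8 CPM in growth light and 16.7, 20.4 and 94.5 CPM in high light in WT. The hy5 seedlings had 20, 18.7 and 18 CPM in growth light and 52.8, 55 and 102 CPM in high light. Replicates 1 and 2 were below growth light in WT and above it in hy5, while replicate 3 was above growth light in both. TOC1 was at 16.3, 16.8 and 15.5 CPM in growth light and 53.4, 76.1 and 37.9 CPM in high light in WT, and in hy5 at 17.1, 17.9 and 17.69 CPM in growth light and 26, 18.7 and 37.4 CPM in high light. It rose in WT (1.78 ± 0.27, adjusted p = 7.2e-05), the groups in hy5 did not overlap but the light effect of 0.64 ± 0.26 did not pass the test (adjusted p = 0.061). Its interaction was -1.14 ± 0.37 (adjusted p = 0.22) and -1.64 ± 0.26 without replicate 3 (adjusted p = 9.0e-05). The labels give 2 h for both lights, and clock time at sampling is not given in the sources used here.

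PIF factors and their growth targets, which promote elongation in shade and darkness, had no call among 15 with all libraries and a median of -0.56. With the block 5 were negative and without the replicate 3 libraries 8 of 14, with no positive call in either. PIF3 was at 16.4, 16.9 and 13.9 CPM in growth light and 26.9, 19.5 and 13.3 CPM in high light in WT, and in hy5 at 8.51, 15.2 and 14.2 CPM in growth light and 8.06, 3.26 and 3.1 CPM in high light. It fell in hy5 (-1.39 ± 0.35, adjusted p = 0.0043) and did not pass the test in WT, with an interaction of -1.73 ± 0.49 (adjusted p = 0.18) and -1.68 ± 0.42 without replicate 3 (adjusted p = 0.0050). HFR1, a bHLH protein that restrains PIFs, was at 22.5, 20.9 and 12.7 CPM in WT and 1.85, 3.77 and 4.09 CPM in hy5 in high light, against 11.9, 11 and 12.7 CPM in WT and 5.95, 6.73 and 7.16 CPM in hy5 in growth light. It fell in hy5 and did not pass the test in WT, with an interaction of -1.68 ± 0.43 (adjusted p = 0.15) and -2.13 ± 0.40 without replicate 3 (adjusted p = 5.1e-04). IAA29, an auxin-response repressor, had 172 counts in growth light and 0 in high light over the hy5 libraries, at least 73.7-fold lower, and was at 2.04, 2.39 and 3.64 CPM in growth light and 0, 0.561 and 0.0442 CPM in high light in WT.

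Of 9 nitrate transport and assimilation genes tested, NRT1.8 was the only one called with all libraries, and 5 were negative with the block and 5 without the replicate 3 libraries. NRT1.7, NRT1.8, NRT3.1 and UPM1 were in both, with NRT1.1 only with the block and NIR1 only without replicate 3, where NIA1 was positive. NRT1.7, which moves nitrate out of old leaves, was at 39.4, 37.8 and 7.61 CPM in WT and 20.8, 8.56 and 4.63 CPM in hy5 in high light, against 24.5, 20.6 and 20.4 CPM in WT and 28.6, 32.8 and 31.7 CPM in hy5 in growth light. Replicate 3 was the lowest high-light library of NRT1.7 in both genotypes. Of 12 ethylene synthesis genes, ACS6 was called, and ACO1 joined it with the block and without the replicate 3 libraries. ACO1, an ACC oxidase that makes ethylene, was at 4.27, 4.78 and 3.58 CPM in growth light and 2.59, 2.43 and 5.39 CPM in high light in WT, and in hy5 at 0.895, 0.974 and 1.06 CPM in growth light and 2.25, 3.26 and 6.28 CPM in high light. Of 6 genes of plastid RNA maturation, HCF152 was called negative, and CRP1 (AT5G42310), another pentatricopeptide repeat protein of plastids, was called positive with the block and without the replicate 3 libraries. CRP1 was at 31.7, 35.4 and 78.5 CPM in WT and 51.3, 53.3 and 52.7 CPM in hy5 in high light, with an interaction of 1.17 ± 0.39 (adjusted p = 0.23) and 1.71 ± 0.27 without replicate 3 (adjusted p = 7.5e-05).

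Suberin is the polyester of root barriers and seed coats, and of its 18 tested genes RWP1 was the only one called with all libraries, with a list median of -0.68. With the block FAR1 was positive and RWP1, GPAT5 and KCS20 negative, and without the replicate 3 libraries FAR1 was positive and 6 genes were negative. GPAT5, which makes its glycerol esters, was at 9.6, 9.64 and 11.5 CPM in growth light and 3.84, 4.96 and 0.575 CPM in high light in WT. The hy5 libraries were at 6.97, 6.73 and 6.9 CPM in growth light and 0.529, 0 and 0.165 CPM in high light. It fell in both genotypes, with log2 light effects of -1.74 in WT and -4.77 in hy5, and with an interaction of -3.03 ± 0.92 (adjusted p = 0.20) and -3.20 ± 0.72 without replicate 3 (adjusted p = 0.0024). Markers of root cells fell in sum in high light in both genotypes. Their summed level over 9 genes was 2685, 3155 and 2884 CPM in WT and 2621, 2598 and 2623 CPM in hy5 in growth light, and 729, 612 and 387 CPM in WT and 623, 315 and 877 CPM in hy5 in high light. The sum was thus lower in every high-light library than in any growth-light one, and the 2 high-light groups overlapped. Of the 9 root markers, 0 were called with all libraries and 3 had a positive interaction. LRX1, COBL9, EXPA7, PHT1;1 and CASP1 were negative both with the block and without the replicate 3 libraries, where IRT1 was positive. LRX1, a root hair wall protein, was at 6.85, 9.35 and 6.41 CPM in WT and 3.5, 0 and 1.12 CPM in hy5 in high light, against 21.4, 19.4 and 26.3 CPM in WT and 47, 56.5 and 61.5 CPM in hy5 in growth light. The root hair gene COBL9 was at 2.76, 2.62 and 0.31 CPM in WT and 0.463, 0 and 0 CPM in hy5 in high light, against 9.01, 8.28 and 10.5 CPM in WT and 13.4, 11 and 11.9 CPM in hy5 in growth light. EXPA7, an expansin, went the other way in WT, from 26.3, 20.2 and 24.2 CPM to 117, 52.2 and 2.12 CPM. In hy5 it went from 22.6, 21.1 and 20.3 CPM to 6.74, 3.06 and 0.248 CPM. Its WT light effect was 1.28 ± 0.87 (adjusted p = 0.31) and 1.85 ± 0.36 without replicate 3 (adjusted p = 2.4e-04). The part of root cells in the suberin result was not tested.

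**Figure D5:**
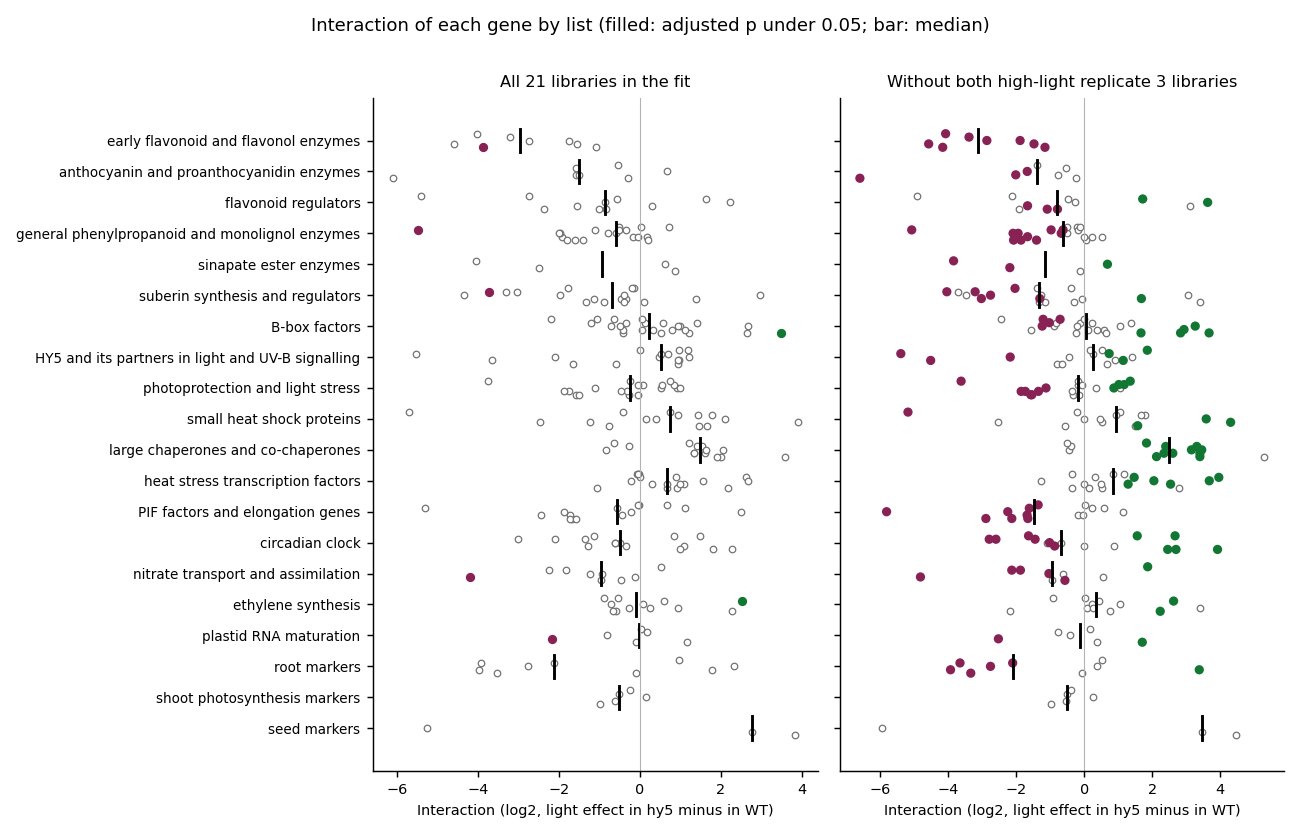
Interaction of each gene in 20 gene lists, as log2 of the light effect in hy5 minus that in WT, from the fit of all libraries (left) and without both high-light replicate 3 libraries (right, genes tested in both fits); filled points have an adjusted p under 0.05, green for positive and purple for negative, and black bars are list medians. The early flavonoid genes lie to the left of 0 and most large chaperones to the right in both panels, and nearly all filled points are in the right panel.

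The lists with no call under edgeR with all libraries held genes at an unadjusted p under 0.05, as did 13.6% of all genes tested. These were 7 of 15 clock genes, 6 of 19 photoprotection genes, 5 of 15 genes in each of the HY5 partner and PIF lists, 4 of 14 large chaperones, 4 of 17 heat stress factors, 4 of 9 root markers, 3 of 15 small heat shock proteins, 3 of 4 sinapate genes, 2 of 7 anthocyanin genes and 2 of 11 flavonoid regulators. None of the 5 shoot photosynthesis and 3 seed markers did. DESeq2 on all libraries called 369 of 25351 genes tested. Among these lists it called 2 genes each of the HY5 partner, PIF, root marker and small heat shock protein lists, 1 each of the sinapate and photoprotection lists and 0 of the others. Of the 8 early flavonoid genes, 7 had an unadjusted p under 0.05 and DESeq2 called 5.

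Among genes called without the replicate 3 libraries that had a symbol and at least 100 counts on average in their highest group, the largest negative interactions in that fit were those of XTH26, XTH13, ELI3-2, RUP1, LAC3, HSP21, 4CL3 and LPR1. XTH26 and XTH13, xyloglucan-modifying enzymes of the wall, had 273 and 258 counts in growth light and 0 in high light over the hy5 libraries, at least 117-fold and 111-fold lower. Both also fell in WT, XTH26 from 14.3, 13.2 and 16.6 to 4.51, 4.02 and 0.619 CPM (adjusted p = 0.017) and XTH13 from 15.72, 19.5 and 14.9 to 1.59, 5.33 and 0 CPM (adjusted p = 0.015). The fall in hy5 was 19.3-fold larger than in WT for XTH26 and 11.3-fold for XTH13, with hy5 set at 3 counts in high light. WT levels were taken as measured there, from 111 and 76 counts in high light, so these 2 values are no bounds. With all libraries the interactions had adjusted p of 0.073 and 0.19. LAC3, a laccase, was at 18.6, 19.7 and 21.4 CPM in growth light and 22.1, 30.2 and 0.0884 CPM in high light in WT, and in hy5 at 31.4, 32.1 and 32.1 CPM in growth light and 1.98, 0 and 0 CPM in high light. LAC3 fell in hy5 (-5.58 ± 1.22, adjusted p = 0.0016), and WT replicate 3 was as low as hy5 in high light while WT replicates 1 and 2 were not. ELI3-2, a cinnamyl alcohol dehydrogenase family member, was at 33.2, 18.23 and 0.929 CPM in WT and 2.51, 4.08 and 0.992 CPM in hy5 in high light, with 1 count over the WT libraries and 0.831, 0 and 0.177 CPM in hy5 in growth light. LPR1, a ferroxidase of phosphate sensing in root tips, was at 10.8, 14.3 and 3.01 CPM in WT and 0.198, 0 and 0 CPM in hy5 in high light, and its interaction was -5.30 ± 1.17 with all libraries (adjusted p = 0.080) and -4.92 ± 0.99 without replicate 3 (adjusted p = 9.7e-04).

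The largest positive interactions by the same rule were those of CYC1BAT, CSLD5, MEF1, cPT5, AT5G12030, IGMT3, MCA2 and Phox1. CYC1BAT, a B-type mitotic cyclin, was at 8.88, 7.09 and 9.92 CPM in growth light and 0.167, 0 and 4.47 CPM in high light in WT, and in hy5 at 3.65, 4.34 and 3.01 CPM in growth light and 1.59, 3.16 and 0.331 CPM in high light. CSLD5, a cellulose synthase-like protein of the dividing cell plate, was at 15.2, 14.3 and 16.8 CPM in growth light and 0.0835, 0.187 and 4.64 CPM in high light in WT and at 10.8, 10.8 and 11.1 CPM in growth light and 5.88, 4.59 and 1.07 CPM in high light in hy5. In both genes replicates 1 and 2 were near 0 in WT and not in hy5, and replicate 3 had the opposite order. Their interactions with all libraries were 1.19 ± 1.2 for CYC1BAT (adjusted p = 0.68) and 1.58 ± 1.00 for CSLD5 (adjusted p = 0.49), against 5.84 ± 0.80 and 5.74 ± 0.48 without replicate 3. cPT5, a cis-prenyltransferase, was at 4.68, 4.49 and 16.6 CPM in WT and 8.59, 46.4 and 30.1 CPM in hy5 in high light, against 1.05, 1.59 and 1.29 CPM in WT and 0.448, 0.354 and 0.265 CPM in hy5 in growth light, with an interaction of 3.54 ± 1.00 (adjusted p = 0.18) and 4.42 ± 0.92 without replicate 3 (adjusted p = 0.0012). In cPT5 the high-light groups overlapped, with WT replicate 3 above hy5 replicate 1. Phox1, a protein with PB1 and TPR domains, was at 1.17, 2.8 and 12.6 CPM in WT and 7.4, 16.5 and 13.6 CPM in hy5 in high light. MEF1, an editing factor of mitochondrial RNA, was at 3.09, 1.12 and 28.3 CPM in WT and 12.2, 6.42 and 11.5 CPM in hy5 in high light. IGMT3, an indole glucosinolate methyltransferase, was at 2.26, 0.467 and 13 CPM in WT and 2.84, 9.69 and 0.786 CPM in hy5 in high light, and MCA2, a membrane protein of calcium uptake, at 0.167, 0 and 4.6 CPM in WT and 0.991, 0.816 and 1.61 CPM in hy5. In MEF1, IGMT3 and MCA2 WT replicate 3 was above hy5 replicate 3, opposite to replicates 1 and 2, and their interactions with all libraries were 2.62, 1.83 and 0.31, with adjusted p of 0.32, 0.46 and 0.94. Without replicate 3 they were 4.89, 4.29 and 4.12.

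The 5153 genes called without the replicate 3 libraries were split by their light effects in each genotype in that fit. Of the 2371 positive ones, 833 fell in WT and did not pass the test in hy5, 770 rose in hy5 and did not pass the test in WT, and 250 fell in WT and rose in hy5. A further 260 rose in both, 171 fell in both and 87 passed the test in neither. Of the 2782 negative ones, 918 fell in hy5 and did not pass the test in WT, 838 rose in WT and did not pass the test in hy5, and 212 rose in WT and fell in hy5. A further 444 fell in both, 306 rose in both and 64 passed the test in neither. These counts describe a fit with 2 libraries in each high-light group.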

How the data were processed

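Poly-T selected mRNA of Arabidopsis thaliana seedlings was sequenced in 21 libraries of 7 groups, 3 biological replicates each by the labels. The authors deposited whole-number read counts per gene, and per the submitters' processing notes the build was TAIR10 and the tools were DESeq2 1.20.0, featureCounts 1.5.0-p3, StringTie 1.3.3b, HISAT2 2.0.5 and fastp; the strand setting is not given in the sources used here. Every column of the deposited table matched 1 sample. Gene starts and ends in the table equal those of the TAIR10.1 reference for 32532 of 32548 matched locus IDs, and upstream sequence was read from that reference.

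Counts were fitted in R 4.3.3 with edgeR 4.0.16 (quasi-likelihood, robust, TMM, filterByExpr by group, 1 mean per group, all 21 libraries sharing 1 spread), and p-values were Benjamini-Hochberg adjusted over 20234 genes, called under 0.05. SE is the log2 value over the root of F. DESeq2 1.42.0 and limma 3.58.1 gave alternatives. Counting precision is limited by 14.8 counts per CPM at the median depth; floors and intervals cover counting error only.

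Deviations from group means of like-numbered WT and hy5 libraries correlated at 0.381, 0.159 and 0.483 in high light and at 0.0719, 0.0385 and 0.0738 in growth light, so the numbers were taken to pair libraries in high light, from the data and not from the labels. WT replicate 2 correlated better with hy5 replicate 1 (0.216), and WT replicate 1 correlated at 0.278 with hy5 replicate 2. Replicate 3 of either genotype correlated negatively with replicates 1 and 2 of the other, from -0.45 to -0.256. The pattern thus mainly sets replicate 3 apart and does not show pairing by number.

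The 272 genes of the 20 lists, the tests and the genes to name were chosen with earlier results of these data known. Named by rule were HY5, every called gene, up to 3 genes of each list with the smallest adjusted p, and the 8 largest called interactions each way (genes with a symbol and at least 100 counts) without the high-light replicate 3 libraries. Other list members named in the text, such as CHS, F3'H, UGT78D2, MYB12, 4CL1, BBX14, HSP90.1 and CCA1, were chosen after their values were seen.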

Additional observations from a re-analysis of the deposited data

Results flagged for a closer look

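For 18 genes the test of the difference itself separated the hy5 from the WT light effect (edgeR quasi-likelihood test, adjusted p under 0.05), and each count below is of 25 other settings, all of which kept the sign. The log2 difference of hy5 minus WT was 3.49 for BBX16, called in 25 settings, and -3.72 for RWP1, called in 22. It was -5.47 for 4CL3 (called in 19), 1.98 for BGLU18 and 2.35 for AT4G22490 (17 each), 2.52 for ACS6 and -3.71 for UMAMIT33 (16 each), and 1.94 for AT2G36630 (15). For FLS1 it was -3.88, for HCF152 -2.18, for AT4G30670 -2.04 and for AT3G22600 -2.42, each called in 14 settings, and for NRT1.8 -4.18, called in 13. The values of the other 5 genes rest on a hy5 high-light group with at most 1 count and depend on the prior count of the fit. They were -7.87 for CKX5 (called in 18), -6.56 for AT1G13670 (16), -6.59 for CYCP3;2 (14), -7.98 for JAZ7 (14 of 24 settings in which it was tested) and -7.35 for GA2OX4 (12 of 24).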

How the results depend on the processing

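The counts of 5 positive and 13 negative interactions became 1 and 0 with the 12 libraries alone (1272 genes at an unadjusted p under 0.05), 2 and 2 with library totals in place of TMM, which moved the median of all genes from -0.03 to 0.30, and 120 and 249 with DESeq2 on 21 libraries. They became 9 and 35 with DESeq2 on 12 libraries, 1025 and 819 with limma voom and sample weights, 24 and 66 with an added term for high-light columns named by genotype, and 2371 and 2782 without both high-light replicate 3 libraries. The replicate block within each light level gave 753 and 1438. The replicate block over all 21 libraries, although like-numbered growth-light libraries hardly deviated together, gave 5 and 11. Leaving out 1 library at a time gave from 1 to 1872 positive and from 1 to 1510 negative calls. The highest were without WT replicate 3 in high light, then 265 and 909 without hy5 replicate 1, 40 and 45 without hy5 replicate 3 and 10 and 15 without hy5 replicate 2, all in high light. Without WT high-light replicate 1 there were 4 and 5 calls, without replicate 2 there were 3 and 4, and the lowest counts were without a growth-light library. The cause was not tested.

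The interactions of 130 genes were recomputed, 83 named by rule and 47 list members named outside it. Of these values 2710 kept direction and side of the threshold, 158 lost the call, 352 gained it and 21, of 9 genes, changed sign. Apart from single libraries left out, PSAD-1 was at 0.19 and 4CL2 at 0.090 with library totals, OLEO2 at -0.18, SCPL10 at -1.65 and 4CL5 at -0.92 with voom, SCPL10 at -0.14 with the replicate block within each light level, and SCPL10 at -1.67 and 4CL2 at 0.0076 without both high-light replicate 3 libraries. Over the 12 fits that leave out 1 library, interactions ran from -1.56 to 0.37 for CAB1, from -0.53 to 0.019 for PSAD-1, from -0.23 to 4.47 for MCA2, from -1.37 (without hy5 high-light replicate 3) to 1.33 for SCPL10, from -0.068 to 0.42 for 4CL1, from -0.41 to 0.015 for 4CL2, from -0.18 to 0.69 for 4CL5 and from -0.10 to 2.75 for IRT1. The one changed sign that was also called was that of SCPL10 without both replicate 3 libraries. None of the 18 called genes changed sign.

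Depth limits the genes near the floor of 3 counts, among them JAZ7, CKX5 and GA2OX4. The labels do not say what the replicates share, so the p-values measure the spread between these libraries. That spread was shared over all 21 libraries, most of them in growth light. Sample weights from limma voom ran from 2.58 to 5.95 in growth light and from 0.0367 to 2.62 in high light. High-light libraries thus varied more, and p-values from the shared spread can be too small, also with 2 libraries in each high-light group.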
